A study of Rattus norvegicus with 7 samples.

Results

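The matrix metalloproteinases (MMP), the ADAM and ADAMTS proteases and their tissue inhibitors (TIMP) were followed in NR8383 rat alveolar macrophages exposed for 4 h to zinc oxide nanoparticles. All probes that the array files name Mmp, Adam, Adamts or Timp1 to Timp4 followed by a number were taken, which gave 61 genes with 83 probes out of 36174 gene names with 45598 probes on the array. They were 22 MMP, 18 ADAM, 17 ADAMTS and 4 TIMP genes. RNA came from 3 ZnO cultures and 4 control cultures, with 1 one-color Agilent array for each. ZnO cells received uncoated ZnO nanoparticles of the type NM110, for which the labels give 2 µg/mL and the methods of the study another dose, and control cells were incubated for the same 4 h without particles. Both groups were held without serum during that time. NR8383 is 1 line, started from cells washed out of the lung of a normal rat, and grows partly attached and partly floating. It is therefore a model of macrophages alone, without the other cells and the matrix of a lung.

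MMPs are secreted or membrane-bound endopeptidases that hold a zinc ion in their active site and cut matrix proteins, cytokines and other proteases. Most ADAMs that keep this zinc site shed the outer part of membrane proteins, ADAMTS proteases act on proteoglycans, procollagens and other matrix proteins, and TIMPs block many of these enzymes by binding the catalytic zinc. Lung macrophages are known as a source of macrophage elastase (Mmp12) and of gelatinase B (Mmp9), and as cells in which Adam17 releases tumor necrosis factor from the membrane.

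No gene of this system that could be tested passed the test for a change in ZnO cells. In 31 of the 61 genes no probe was well above background on any array, and ZnO and control values overlapped in every probe tested. Of the 61 genes, 21 had a probe that could be tested, among them Mmp3, Mmp7, Mmp9, Mmp12, Adam10, Adam15, Adam17, Timp1 and Timp2. Fold changes of the 24 tested probes lay between -0.28 and 0.24 on the log2 scale.

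The arrays of both groups covered similar ranges of intensity and of spots well above background. The 75th percentile of intensity was 979.6 to 1602.8 on the ZnO arrays and 958.2 to 1489.4 on the control arrays, and 52.9 to 54.3% of spots on the ZnO arrays and 51.7 to 56.0% on the control arrays were well above background. All 7 arrays shared 1 slide and 1 scan, with the ZnO arrays in 1 row of the slide and the control arrays in the other, so that slide row and exposure cannot be told apart. The macrophage label was checked on 15 markers with a probe, of which 12 exceeded background clearly on all 7 arrays, while Marco and Cd163 were so on none and Adgre1 on 1. Across the 12 markers the median level was -0.22 to -0.01 on ZnO arrays and -0.07 to 0.25 on control arrays (log2 relative to the 75th percentile). None of 8 epithelial and none of 4 lymphocyte markers did so on every array. Of 7 fibroblast markers, Col1a2, Dcn and Thy1 were, but Col1a1, Col3a1, Lum and Pdgfra were so on no array, and the median of the 3 was -2.66 to -2.11 on ZnO arrays and -3.28 to -2.10 on control arrays. Pecam1, Cdh5 and Vwf were well above background among 5 endothelial markers, at medians of -0.71 to -0.55 on ZnO arrays and -0.80 to -0.60 on control arrays. Among 6 neutrophil markers only Mpo was above it throughout, and the 3 that were tested had medians of -5.63 to -5.28 on ZnO arrays and -5.41 to -4.85 on control arrays. The part of these markers in the values below was not tested, and in bulk RNA fewer cells of a type and less RNA per cell cannot be told apart.

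**Figure D1:**
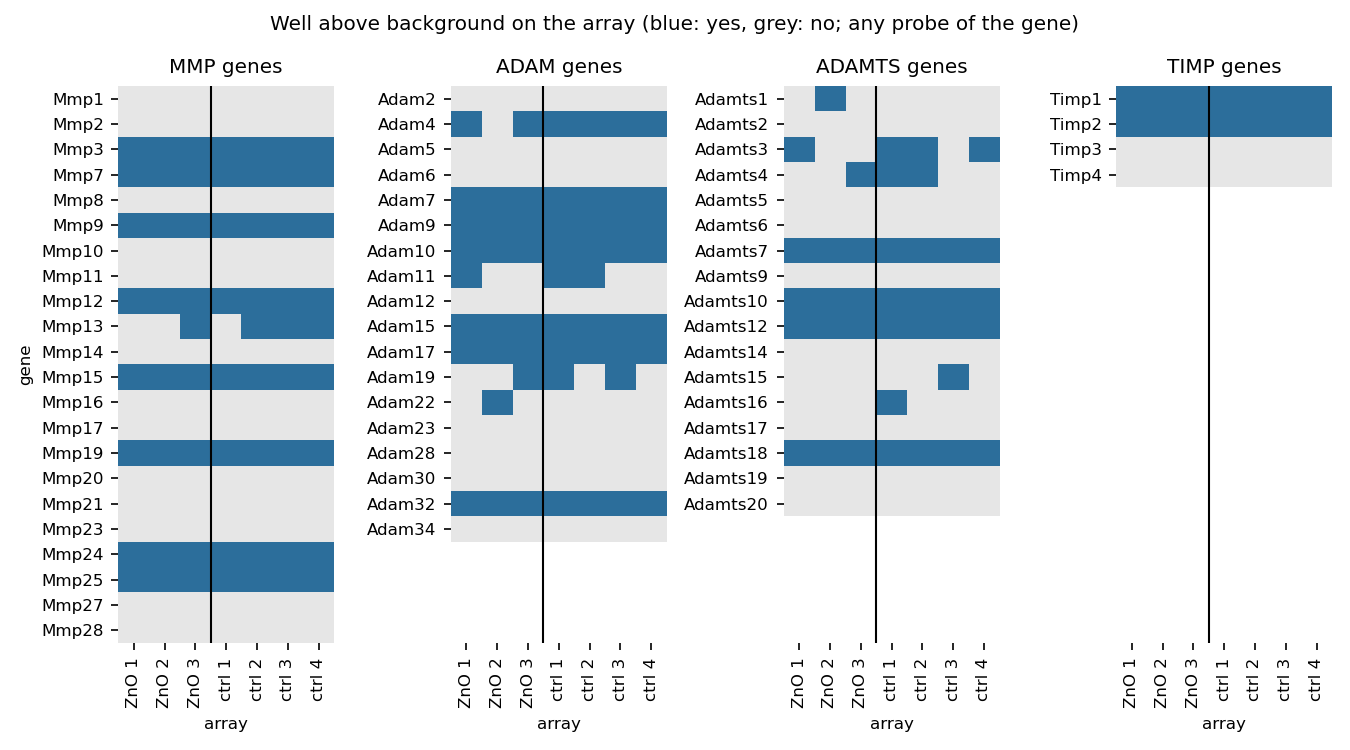
Genes in rows and arrays in columns, the 3 ZnO arrays left of the line and the 4 control arrays right of it. Blue marks an array on which at least 1 probe of the gene was well above background; 31 of the 61 genes have no blue cell, and the pattern is nearly the same on ZnO and control arrays.

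Which members the cells expressed was read from the scanner's own mark for a spot well above background. On a single array, 25 to 27 member probes carried it in ZnO cells and 26 to 29 in control cells. Over all 7 arrays, 23 probes of 20 genes carried it throughout, 50 probes on no array, and 9 probes of 9 genes on some arrays but too few for a test. Adam4 was the only tested member short of all arrays, with 2 of 3 ZnO arrays and 4 of 4 control arrays. No probe was above background on all arrays of one group and on none of the other. A probe entered the test if every array of ZnO cells, or every array of control cells, carried the mark. This held for 28.9% of the member probes, against 44.0% of all probes on the array. By the scanner's looser mark for a positive and significant signal, 32 member probes passed on all arrays, against the 23 above.

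The expressed part was unevenly spread over the roles. None of the 3 collagenases could be tested. Mmp1 and Mmp8 were above background on no array, and Mmp13, the main collagenase of rodents, on 1 of 3 ZnO and 3 of 4 control arrays. Gelatinase B was tested while both probes of gelatinase A (Mmp2) were not. Of the 6 membrane-type MMPs, Mmp15, Mmp24 and Mmp25 were tested. Mmp14, the membrane-type enzyme that activates Mmp2, was above background on no array with either of its probes, although each has 10 spots. None of the 5 ADAMTS proteoglycanases (Adamts1, Adamts4, Adamts5, Adamts9 and Adamts15) and none of the 3 procollagen N-proteinases (Adamts2, Adamts3 and Adamts14) could be tested. Timp1 and Timp2 were tested, whereas the 3 probes of Timp3 and the probe of Timp4 were above background on no array. Mmp13, Adamts1, Adamts3, Adamts4 and Adamts15 were above background on some arrays, but on too few for a test. A probe that is not above background gives only a bound on the transcript. Genes above it on no array were thus not detectable here, which does not make them absent. Adam8, a macrophage sheddase, was not analysed here.

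The question put to the tested members was whether 4 h with ZnO changed their transcripts. With limma and Benjamini-Hochberg adjustment over the 20065 probes tested on the array, 0 of 24 member probes passed an adjusted p of 0.05, where 10 probes did so over the whole array (0.0498%). At the thresholds of the study, an adjusted p of 0.001 with a 1.5-fold change, the count was again 0 of 24, against 4 of all probes (0.0199%). The study's own count for ZnO was much larger and came from a test that its methods do not name. At an unadjusted p of 0.05 it was 0 of 24, where 5.93% of all tested probes passed. In 0 of 24 member probes did the 3 ZnO arrays all lie on 1 side of the 4 control arrays, which happened in 7.38% of all tested probes. The estimated change exceeded 1.5-fold, whatever its p, in 0 of 24 member probes, against 1.06% of all tested probes. The smallest unadjusted p among the members was 0.0887, for Adam32, with an adjusted p of 0.885.

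A p above the threshold does not show that values were equal, so the intervals were examined as well. For 15 of 24 member probes (62.5%), covering 12 genes, the 95% interval of limma excluded a 1.5-fold change either way; the share over all tested probes was 82.6%. These genes were Mmp7, Mmp9, Mmp19, Mmp24, Adam4, Adam9, Adam10, Adam15, Adam17, Adamts10, Adamts12 and Timp2. The interval of Adam4 ended at -0.58 on the log2 scale, close to the limit at 0.585 either way. All these intervals hold for the main scaling only. For Mmp3, Mmp12, Mmp15, Mmp25, Adam7, Adam32, Adamts7, Adamts18 and Timp1 a 1.5-fold change was not excluded at this number of arrays. The median log2 fold change was -0.07 over the 24 member probes and -0.01 over all tested probes, with 6 member probes above 0 and 18 below.

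**Figure D2:**
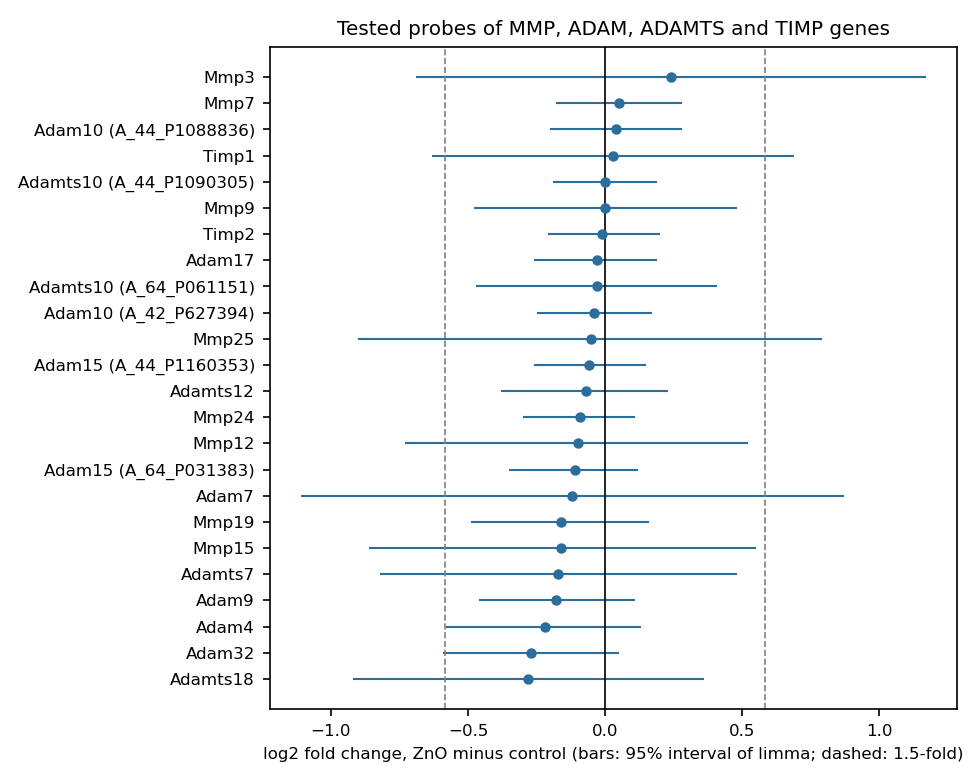
Log2 fold change of ZnO over control cells for each of the 24 tested member probes (points), with the 95% interval of limma (bars) and dashed lines at a 1.5-fold change. All intervals include 0, from Adamts18 at -0.28 to Mmp3 at 0.24, and 9 of them cross a dashed line.

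Mmp9, the gelatinase that cleaves denatured collagen and type IV collagen, was measured by a 60-base probe on chr3:155992463-155992522 (rn4, plus strand). Its sequence, shown because the only gelatinase value rests on this probe, is given on its own line.
Mmp9 probe: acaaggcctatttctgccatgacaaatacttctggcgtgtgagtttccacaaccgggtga
On the log2 scale relative to the 75th percentile of the array, Mmp9 read -1.65, -1.38 and -1.48 in ZnO cells, and -1.66, -1.08, -1.98 and -1.30 in control cells. The ZnO values lay inside the range of the control values. The means were -1.50 ± 0.13 in ZnO cells and -1.50 ± 0.40 in control cells (SD, n = 3 and 4). The log2 fold change was 0.00 with a standard error of 0.21, and the interval allowed 0.72-fold to 1.40-fold (limma, adjusted p = 0.999). The study reported Mmp9 protein as strongly lowered at a later time of ZnO exposure. RNA at 4 h does not measure protein or enzyme activity.

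Mmp12, the elastase of macrophages, was read by a 60-base probe placed over a 357-base stretch, chr8:4259057-4259413 (rn4, plus strand). A probe across an intron would be placed so, but exon positions were not annotated here. The sequence is printed because that stretch is longer than the probe.
Mmp12 probe: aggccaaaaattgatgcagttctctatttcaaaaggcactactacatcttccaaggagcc
Mmp12 read -2.05, -1.38 and -1.08 in ZnO cells, and -1.74, -1.22, -1.67 and -0.97 in control cells. One ZnO array lay below all control arrays and the others among them. The log2 fold change was -0.10 with a standard error of 0.27, and the interval of 0.60-fold to 1.44-fold left a fall past 1.5-fold possible (limma, adjusted p = 0.999).

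Mmp3, the stromelysin that cuts proteoglycans and activates other MMPs, had the highest fold change of the 24 tested probes, and the second widest spread between arrays. It read -5.48, -5.14 and -4.60 in ZnO cells, and -5.92, -4.75, -5.98 and -4.62 in control cells. The control arrays fell into a higher and a lower pair, with 1 ZnO array level with the higher pair and the others between the pairs. The log2 fold change was 0.24 with an interval of -0.69 to 1.17 (limma, adjusted p = 0.999). A second probe of Mmp3 was not above background on any array.

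Matrilysin (Mmp7), a small secreted MMP, was tighter, with values of -1.12 to -0.79 in ZnO cells and -1.07 to -0.89 in control cells and a log2 fold change of 0.05 ± 0.10 (SE). The 3 membrane-type enzymes had log2 fold changes of -0.16 (Mmp15), -0.09 (Mmp24) and -0.05 (Mmp25). Mmp15 read 1.47 to 2.41 in ZnO cells and 1.53 to 2.58 in control cells. Mmp25, which is held in the membrane by a lipid anchor and is best known from leukocytes, read -4.11 to -2.63 in ZnO cells and -3.82 to -2.89 in control cells. Another probe of Mmp25 was above background on no array. Mmp19 had a log2 fold change of -0.16 ± 0.14 (SE). None of these probes came near the adjusted threshold, and the choice to name them was made after their values were seen.

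**Figure D3:**
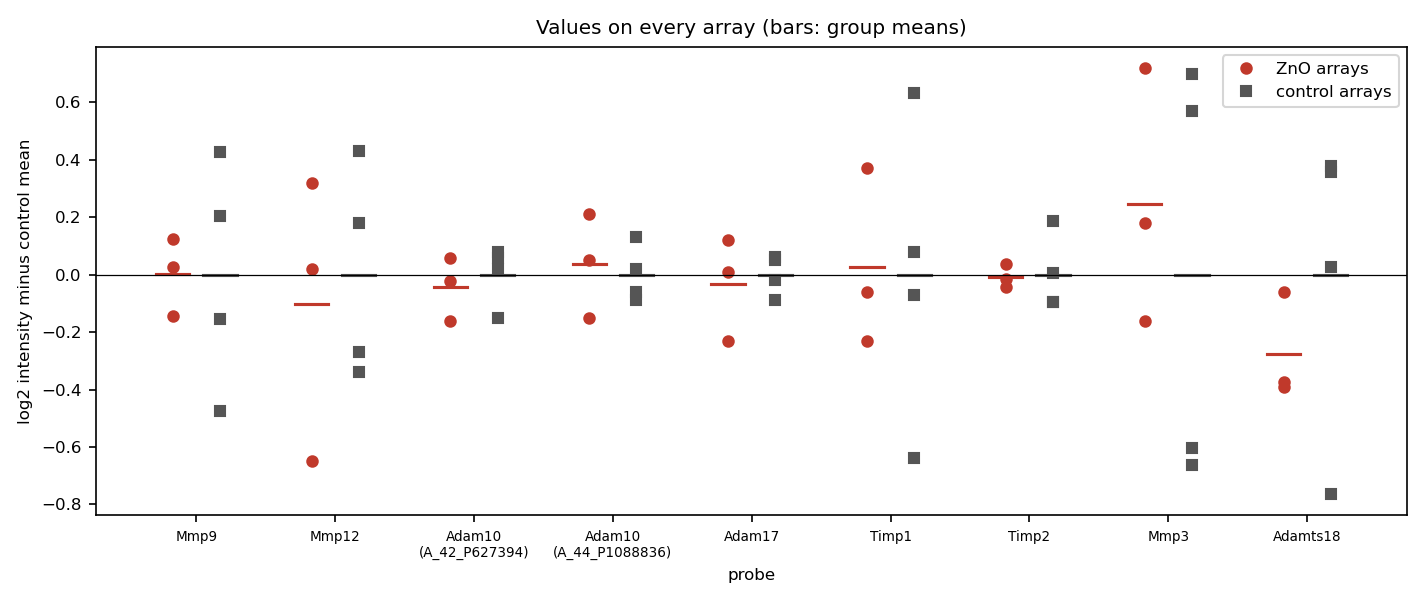
Log2 intensity of 9 probes on every array, each set to the mean of its control arrays, with ZnO arrays (red circles) left of control arrays (grey squares) and bars at the group means. ZnO and control points overlap in every probe; Mmp3 and Mmp12 spread widely within both groups, and Timp2 and both probes of Adam10 less.

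Adam10 and Adam17 varied less between arrays than Mmp3, Mmp9 and Mmp12. Adam17 releases tumor necrosis factor and its receptors, and was read on chr6:41883292-41883351 (rn4, minus strand). The probe is shown because Adam17 rests on it alone.
Adam17 probe: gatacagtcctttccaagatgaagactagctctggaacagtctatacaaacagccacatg
Adam17 read -0.79, -0.55 and -0.44 in ZnO cells, and -0.51, -0.50, -0.65 and -0.58 in control cells. The control arrays fell within the range of the ZnO arrays. The log2 fold change was -0.03 with a standard error of 0.10, and the interval of 0.84-fold to 1.14-fold excluded a 1.5-fold change (limma, adjusted p = 0.999).

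Adam10, which sheds Notch receptors and many other membrane proteins, had 2 tested probes, at chr8:75291920-75291979 and chr8:75291038-75291097 (rn4, plus strand). The first read -0.30, -0.16 and -0.08 in ZnO cells, and -0.06, -0.12, -0.29 and -0.08 in control cells. The other read -1.79, -1.95 and -2.15 in ZnO cells, and -1.98, -2.09, -1.87 and -2.06 in control cells. ZnO and control arrays overlapped in both, with log2 fold changes of -0.04 and 0.04 and intervals inside 1.5-fold either way (limma, adjusted p = 0.999 for each). The 2 probes of Adam15, a sheddase with an integrin-binding loop, had log2 fold changes of -0.06 and -0.11, and Adam9, a further membrane sheddase, of -0.18 ± 0.12 (SE). Of the remaining ADAM members, Adam4, Adam7 and Adam32 were tested, which are best known from the testis and epididymis. Adam32 read -5.14, -4.79 and -4.61 in ZnO cells, and -4.60, -4.76, -4.45 and -4.49 in control cells, so that the second control array lay among the ZnO arrays and the others above them. Its log2 fold change was -0.27 ± 0.14 (SE), and it was named for its p after the values were seen.

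Adamts7, Adamts10, Adamts12 and Adamts18 were the tested ADAMTS genes. Adamts7 and Adamts12 are known for cutting cartilage oligomeric matrix protein, and Adamts10 for its tie to fibrillin microfibrils. Adamts18 had the lowest fold change of the 24 tested probes. It read -4.90, -5.23 and -5.21 in ZnO cells, and -4.46, -4.81, -5.60 and -4.48 in control cells. The third control array was the lowest of all 7, and the other control arrays lay above the ZnO arrays. The log2 fold change was -0.28 with a standard error of 0.27 (limma, adjusted p = 0.973). Another probe of Adamts18 was above background on no array. Without the third control array the log2 fold change of Adamts18 was -0.53 (limma, adjusted p = 0.681), so 1 library decided that value, and it did not pass the adjusted threshold either way. Adamts7, Adamts12 and the probes of Adamts10 had log2 fold changes of -0.17, -0.07, 0.00 and -0.03.

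The inhibitors stood at both ends of precision. Timp2 inhibits MMPs and also takes part in the activation of Mmp2. Its probe has 10 spots, all above background on all arrays, with a spot SD of 0.02 to 0.06. It read 5.40, 5.37 and 5.45 in ZnO cells, and 5.32, 5.42, 5.32 and 5.60 in control cells. The ZnO arrays lay within the control range, and the interval of 0.86-fold to 1.15-fold was among the narrowest of the members. Timp1, which binds latent Mmp9, also has 10 spots, on a probe placed over 1004 bases at chrX:12542700-12543703 (rn4, minus strand), as a probe across an intron would be. It is shown because its signal lay near background.
Timp1 probe: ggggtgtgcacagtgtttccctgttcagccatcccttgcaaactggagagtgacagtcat
Timp1 read -4.76, -5.19 and -5.36 in ZnO cells, and -4.50, -5.20, -5.77 and -5.05 in control cells. Between 8 and 10 of its spots were above background on ZnO arrays and between 6 and 10 on control arrays, and its spot SD was 0.26 to 0.38 on ZnO arrays and 0.17 to 0.60 on control arrays. The log2 fold change was 0.03 with an interval of 0.64-fold to 1.61-fold (limma, adjusted p = 0.999), which did not exclude a 1.5-fold change.

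**Figure D4:**
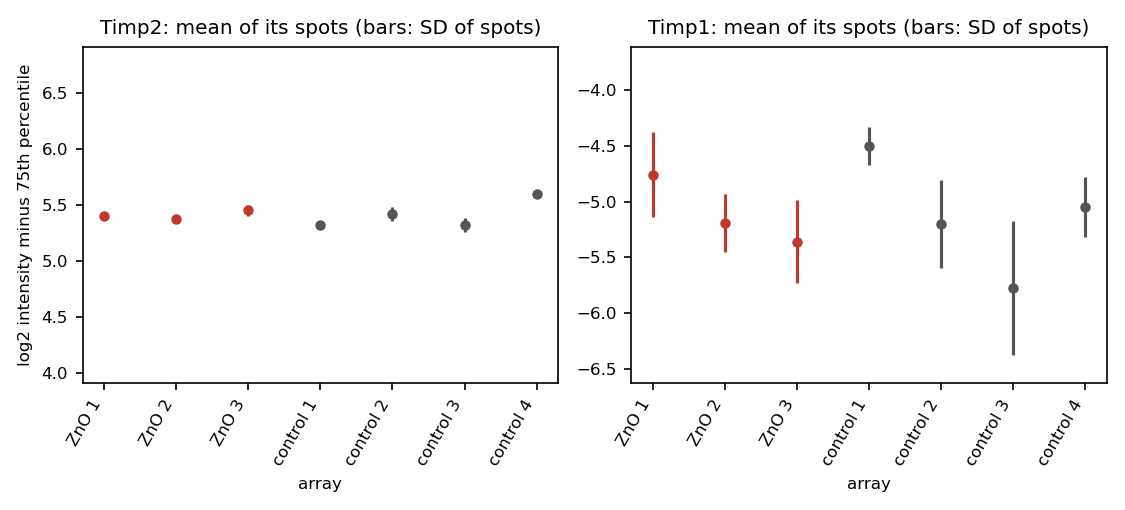
Mean log2 intensity of the spots of Timp2 (left) and Timp1 (right) on each array, relative to the 75th percentile of the array, with bars for the SD of up to 10 spots; ZnO arrays (red) come before control arrays (grey). The SD of spots is at most 0.06 for Timp2 and reaches 0.60 for Timp1.

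The spread between arrays, which holds differences between cultures and between measurements, differed widely among the members. The SD between arrays of 1 group, pooled over ZnO and control arrays, had a median of 0.20 over the 24 member probes and of 0.14 over all tested probes. It was above the 90th percentile of all tested probes (0.35) in 8 of the 24. These were Adam7 (0.68), Mmp3 (0.63), Mmp25 (0.58), Mmp15 (0.48), Timp1 (0.45), Adamts7 (0.44), Adamts18 (0.43) and Mmp12 (0.42). The lowest member SD, 0.09, belonged to a probe of Adamts10. Accordingly the interval of the log2 fold change reached a median of 0.32 to either side in the members and 0.25 in all tested probes.

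**Figure D5:**
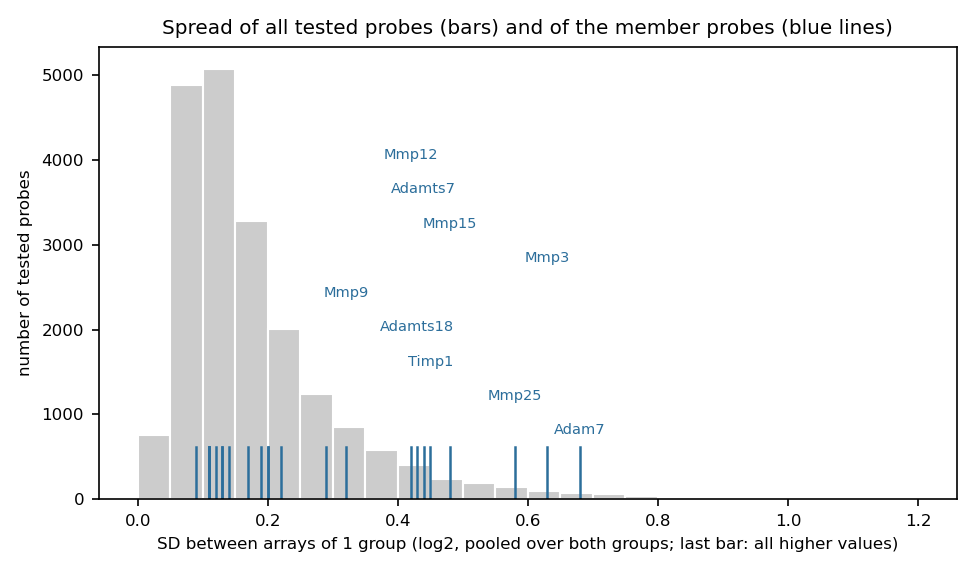
Number of tested probes on the array (grey bars) by their SD between arrays of 1 group on the log2 scale, pooled over ZnO and control arrays. Blue lines mark the 24 member probes, of which Adam7, Mmp3, Mmp25, Mmp15, Timp1, Adamts7, Adamts18 and Mmp12 lie above 0.35, and Mmp9 is the next at 0.32.

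What the members share in sequence was described in RefSeq promoters of the build GRCr8, each with 250 bases before the start, which hold an entry for 42 of the 61 genes. A pair of motifs was searched on both strands. The first was the metal response element, TGCACNC or TGCGCNC, which the zinc-sensing factor MTF-1 binds in metallothionein genes. The other was the AP-1 motif, TGACTCA or its reverse complement TGAGTCA, known from collagenase and stromelysin genes. A cluster of 9 MMP genes lies on chromosome 8 (chr8:4168554-4533706, rn4), and 6 of these 9 hold the AP-1 motif, against 4.05% of 33469 promoters in the table. They are printed, with the motif in capitals and 12 bases to either side, because these 6 genes of the cluster share it.
Mmp13, chr8:12782751-12782781: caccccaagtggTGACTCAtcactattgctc
Mmp12, chr8:12866553-12866583: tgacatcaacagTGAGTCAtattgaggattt
Mmp3, chr8:12925198-12925228: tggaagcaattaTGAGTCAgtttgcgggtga
Mmp1, chr8:12943357-12943387: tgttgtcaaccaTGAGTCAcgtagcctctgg
Mmp10, chr8:12974634-12974664: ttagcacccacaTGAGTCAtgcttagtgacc
Mmp7, chr8:13132951-13132981: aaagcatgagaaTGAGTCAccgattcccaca
All 6 read on the plus strand (GRCr8), with the motif 61 to 87 bases before the start. Only Mmp3, Mmp7 and Mmp12 of the cluster could be tested, with log2 fold changes of 0.24, 0.05 and -0.10. Adam19 was the only member outside the cluster with this motif.

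The metal response element was in 15 of the 42 promoters (35.7%), against 20.6% of all promoters, and in none of the 9 cluster genes. Timp2 held 3 of them, which are printed with Adam10 as the members with most matches among those measured within a narrow interval (GRCr8, minus strand for Timp2 and plus strand for Adam10, motif in capitals).
Timp2, chr10:104089222-104089252: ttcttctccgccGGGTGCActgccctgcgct
Timp2, chr10:104089262-104089292: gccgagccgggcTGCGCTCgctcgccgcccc
Timp2, chr10:104089340-104089370: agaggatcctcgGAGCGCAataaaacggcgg
Adam10, chr8:80226748-80226778: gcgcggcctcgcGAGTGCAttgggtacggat
Adam10, chr8:80226685-80226715: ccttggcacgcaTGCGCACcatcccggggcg
The 12 tested probes of the 10 genes with the motif had a median log2 fold change of -0.06 (-0.28 to 0.04), and the 7 tested probes of the 6 genes with a promoter entry but no match had -0.03 (-0.22 to 0.24). A match here is only a run of letters, and nothing is drawn from it about binding.

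Genes around the system were counted in 4 lists. None of their 69 tested genes passed an adjusted p of 0.05 in either direction, and 5 (7.25%) had an unadjusted p under 0.05, against 5.93% of all tested probes. Of 16 tested regulators and partners, 0 were higher and 2 lower at that unadjusted level, with a median log2 fold change of 0.00. They were Adamtsl4, an ADAMTS-like matrix protein without a protease domain (-0.56, adjusted p = 0.722), and Tspan10, a tetraspanin partner of Adam10 (-0.24, adjusted p = 0.797). Of 20 tested membrane substrates of the sheddases, 0 were higher and 3 lower, with a median of -0.05. Axl, a receptor for apoptotic cells, read -1.84, -1.68 and -1.71 in ZnO cells, and -1.39, -1.53, -1.39 and -1.42 in control cells. The groups of Axl did not overlap and the log2 fold change was -0.31 ± 0.07 (SE), but the adjusted p of limma was 0.547. Groups were also apart in Adamtsl4, Tspan10, Fas and some other listed genes, as in 7.38% of all tested probes. Fas, a death receptor, and Csf1r, the receptor of the macrophage growth factor, had log2 fold changes of -0.33 (adjusted p = 0.728) and -0.28 (adjusted p = 0.81). Tnf itself, the substrate of Adam17, had a log2 fold change of -0.21 (adjusted p = 0.873) and was named after its value was seen. None of 5 tested matrix substrates and none of 28 tested other zinc metallopeptidases passed the unadjusted level, with medians of -0.08 and -0.05. The 28 included Adam1a (0.02), an ADAM outside the members because its name has a letter after the number.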

How the data were processed

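RNA of 3 ZnO and 4 control cultures was measured. The deposited array files hold spot intensity from Agilent Feature Extraction 11.0.1.1 (submitters' processing notes), already background-subtracted and detrended by the authors but not normalized between arrays. The deposited table, called normalized, holds scanner median intensity, equal to that in the array files on all 62976 spots of the 7 arrays, and served as an alternative. It has no columns of the authors' own comparisons.

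Log2 intensity minus the log2 75th percentile of the array's 58717 non-control spots was taken; the mean of a probe's spots left out outlier flags. A probe was called well above background on an array if this mark stood on at least 0.5 of its spots, and was tested if called so throughout the ZnO arrays or throughout the control arrays. ZnO was compared with control by lmFit and eBayes (limma 3.58.1, R 4.3.3), with Benjamini-Hochberg adjustment over all 20065 tested probes. The script was tested on simulated data. The study's methods name the adjustment but no test. Errors and intervals came from the same fit. No slide block could be fitted, as there was 1 slide. The number of arrays limits the precision, and p-values measure the spread between arrays. The labels number these as replicates, and the study's methods call them biological replicates. Tables were handled with Python 3.11.15 and pandas 2.3.3.

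By rule, values on every array are given for any tested probe of Mmp9, Mmp12, Mmp14, Adam8, Adam10, Adam17 and Timp1 to Timp3 (Mmp14 and Timp3 had none, and Adam8 was not analysed here), for probes past an unadjusted p of 0.05 or with groups apart, for genes whose probes differ by over 0.5 (log2), and for the highest and lowest fold change. Of each related list, up to 3 genes with the smallest unadjusted p could be named; each takes its brightest tested probe. The members, the lists and this rule were chosen with earlier results of these data known. The names of 56 member probes were matched to the rat annotation by accession and of 27 by symbol, with none renamed. Positions of probes were taken as the files give them (rn4); promoters are from RefSeq (GRCr8). Alternatives were other scalings, backgrounds, filters and variance settings, a replicate block, and each array left out.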

Additional observations from a re-analysis of the deposited data

Results flagged for a closer look

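In 24 tested probes, each with 4 control arrays, the gap between 1 array and the others was examined, and 1 probe stood out. A probe of Adamts10, a protease tied to fibrillin microfibrils, read -5.89 on the first control array, with the next at -5.28 and the highest at -5.22. About 1 in 20 such groups stands out by chance. The ZnO arrays read -5.67 to -5.21, and the other probe of Adamts10 read -2.94 to -2.90 on the control arrays, with the first at -2.92.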

How the results depend on the processing

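No member passed an adjusted p of 0.05 or the study's thresholds under any of the 20 alternatives. The count at an unadjusted p of 0.05 and the count of probes whose groups did not overlap were both 0, and each became 1 of 83 (Adamts1) with no filter on dim probes, where 3.11% and 4.51% of all 45583 probes did so. Leaving out 1 array gave 0 to 2 at the unadjusted level (Adamts18 without the third control array; Adam32 and Adam4 without the third ZnO array), where 4.35 to 8.96% of all tested probes passed, and 0 to 3 without overlap, where 10.6 to 22.1% of all tested probes had none. The highest of these shares, 8.96% and 22.1%, both came without the first ZnO array. Adam4 was well above background on 2 of 3 ZnO arrays, so its ZnO level is partly a bound. The median log2 fold change of the members was -0.13 to 0.00, and was 0.00 both with centring on the spike-in spots and with no filter on dim probes. Spike-in centring also gave wider errors. The second probe of Adam10 went from 0.04 (limma, unadjusted p = 0.729) to 0.11 (limma, unadjusted p = 0.817). The exclusion of a 1.5-fold change was therefore not shown under that scaling. Signs of values near 0 turned under some alternatives: 8 of 20 for Mmp9 and Timp1, 6 for Timp2, 4 for Mmp12, 3 for Adam17, and 5 and 2 for the probes of Adam10; Mmp3 (0.00 to 0.47) and Adamts18 (-0.53 to -0.10) kept theirs. Related genes at the unadjusted level numbered 5 (5.93% of all tested probes passed), against 0 with spike-in centring (0.254%), 3 with normexp and the 75th percentile (3.09%), 5 with normexp and quantile normalization (5.82%), 9 with no variance moderation (6.28%), 13 with array weights (11.7%) and 3 to 9 with 1 array left out (4.35 to 8.96%).

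Same-numbered ZnO and control arrays had deviations from their group means that correlated at -0.09, 0.21 and -0.24. Only the second ZnO array correlated best with the control array of its own number. With so few arrays these correlations cannot decide whether same-numbered cultures were run together. With a replicate block, 0 members passed the unadjusted level, their median was -0.02 and 2 related genes passed it (4.77% of all tested probes). Dim probes limit the results too, since only 24 of 83 member probes could be tested.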

Other observations

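Adamts1, a proteoglycanase known to respond to inflammatory signals, was too dim to be tested. Its probe has 10 spots and was well above background on 1 array. It read -6.14, -5.77 and -5.98 in ZnO cells, and -6.40, -6.24, -6.85 and -6.37 in control cells. Both groups were thus mostly not well above background, and no fold change is given. Between 2 and 5 of its spots were above background on ZnO arrays, and between 0 and 4 on control arrays.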
